A study of Homo sapiens with 8 samples.

Results

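PARP1, BRCA1, BRCA2, FANCD2, FANCI, FANCA, PALB2, BARD1 and BLM are 9 DNA repair genes that were chosen by name, and they were followed through both deposited expression tables of Kyse510 cells. All 9 were listed in both tables, which hold 31582 genes for the inhibitor libraries and 28942 genes for the shRNA libraries, 26360 of them shared. PARP1 encodes the enzyme that senses DNA breaks and builds poly(ADP-ribose) chains on proteins around them. The other members serve homologous recombination, which repairs a double-strand break from the sister chromatid, and the Fanconi anaemia pathway, which removes crosslinks between the strands. Many genes of both pathways are known to be transcribed mainly as cells enter and pass through S phase, and tumour cells that lose homologous recombination are known to be sensitive to PARP inhibitors.

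Kyse510 is an established cell line of human esophageal squamous cell carcinoma, and RNA was sequenced from 8 libraries, 1 per condition. In the inhibitor table the cells had received vehicle, 7 µM SP2509 (an inhibitor of the histone demethylase LSD1, encoded by KDM1A), 7 µM UNC0642 (an inhibitor of the histone methyltransferase G9a, encoded by EHMT2) or both for 2 days. The series description gives no separate doses for the combination, and the same doses were assumed. In the shRNA table, cells stably carrying a doxycycline (Dox)-inducible shLSD1 or shG9a construct had been selected in puromycin for 14 days and were then kept without Dox or given Dox for 2 days. The study text describes the knockdown control as cells with a nonsilencing shRNA, whereas the sample labels name the uninduced line, and the labels were followed here. No line without a hairpin was analysed with Dox, so Dox and the knockdown cannot be told apart. Values are FPKM, fragment counts of a gene divided by gene length and sequencing depth, and reads were recovered from them as whole numbers. Library totals ranged from 15662035 to 17889466 reads. The 95% intervals given below are exact and cover counting error only, since each condition had 1 library and no difference has a replicate check.

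The hairpins were checked on their targets first. KDM1A was at 26.0 FPKM without and 6.29 FPKM with Dox in the shLSD1 line, and EHMT2 was at 7.85 FPKM without and 4.76 FPKM with Dox in the shG9a line. Of the markers of squamous epithelium, TP63 was at 18.3 to 127 FPKM, KRT5 at 74.6 to 734 FPKM and KRT17 at 158 to 3716 FPKM over the 8 libraries. KRT14 was lower, at 1.10 to 10.1 FPKM. KRT6A ran from 0.676 FPKM with vehicle to 20.03 FPKM with UNC0642. The leukocyte markers PTPRC and CD3E did not exceed 0.0425 FPKM, with CD3E found in the shRNA table only. PDGFRB and PECAM1 did not exceed 0.569 FPKM. COL1A1, a fibroblast marker, was at 2.92 to 5.36 FPKM, and VWF, an endothelial marker, at 0.130 to 1.42 FPKM. Kyse510 is a cultured line, and the part of these 2 genes in the results was not tested.

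A difference was called when 3 conditions held, namely a 1.3-fold or larger difference of (FPKM + 1), a level of 1 FPKM or more in either library, and an unadjusted p below 0.05 in a two-sided exact binomial test on the reads. Log2 fold changes are of (FPKM + 1), which understates the change of low genes, while ratios are of FPKM itself. As a measure of how far libraries differ without a treatment, the 2 uninduced lines were compared with each other. Of 12449 genes tested between them, 1.36% were called higher and 2.16% lower in the shG9a line, and no member that could be tested was called. BRCA2 was under 1 FPKM in both and could not be called. The ratios of the 9 members (shG9a over shLSD1) ran from 0.848 for FANCI to 1.36 for FANCA, and 3 of the 9 had an unadjusted exact binomial p below 0.05. For PARP1 that ratio was 1.21 (95% interval 1.14 to 1.28).

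PARP1 (ENSG00000143799, GRCh38 chromosome 1 from 226360691 to 226408079, minus strand) was the member with the highest FPKM in every library except that with SP2509, where FANCI was higher, and its level varied most, with a ratio of the highest to the lowest library of 4.13 in the inhibitor table and 3.90 in the shRNA table. With vehicle it was at 49.8 FPKM, under SP2509 at 12.2 FPKM, under UNC0642 at 50.4 FPKM and with both inhibitors at 34.8 FPKM. SP2509 was therefore lowest by a wide margin, the combination was intermediate, and the intervals of vehicle (48.5 to 51.1 FPKM) and UNC0642 overlapped. PARP1 fell by 1.94 on the log2 scale with SP2509, to 0.245 of vehicle (95% interval 0.232 to 0.260), and stood 201st from the largest fall among 13342 genes tested. In the combination it fell by 0.51 on the log2 scale (p = 6.37e-70 by the exact binomial test). With UNC0642 the ratio was 1.01, with an interval from 0.977 to 1.05. In RNA from whole cultures, fewer expressing cells and less RNA per cell cannot be told apart.

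In the shRNA libraries PARP1 was at 17.8 FPKM in the shLSD1 line without Dox and 9.23 FPKM with Dox, and at 21.4 FPKM in the shG9a line without Dox and 36.0 FPKM with Dox. The 4 intervals did not overlap, with the induced shLSD1 library lowest and the induced shG9a library highest. PARP1 fell by 0.88 on the log2 scale upon induction of shLSD1 (ratio 0.519, 95% interval 0.483 to 0.557, p = 1.12e-77 by the exact binomial test) and stood 529th from the largest fall among 12970 genes. Upon induction of shG9a it rose by 0.72 on the log2 scale (ratio 1.68, 95% interval 1.60 to 1.77, p = 1.69e-100 by the exact binomial test). The difference between the 2 lines was not tested, as each condition had 1 library.

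PARP1 was thus the 1 member called lower both with SP2509 and with induced shLSD1, a pair of comparisons that share no library. Of 11520 genes tested in these comparisons and in shG9a, 4549 were called lower with SP2509 and 1193 with induced shLSD1. Those called lower in both numbered 186, which is fewer than unrelated calls of that frequency would share. PARP1 stood 21st of them when ranked by the smaller of its 2 falls. Of those 186 genes, 112 were also called lower with induced shG9a and 12, PARP1 among them, were called higher there. PARP1 has a processed pseudogene on chromosome 13, PARP1P1, which was listed in the inhibitor table at no more than 0.0392 FPKM.

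**Figure D1:**
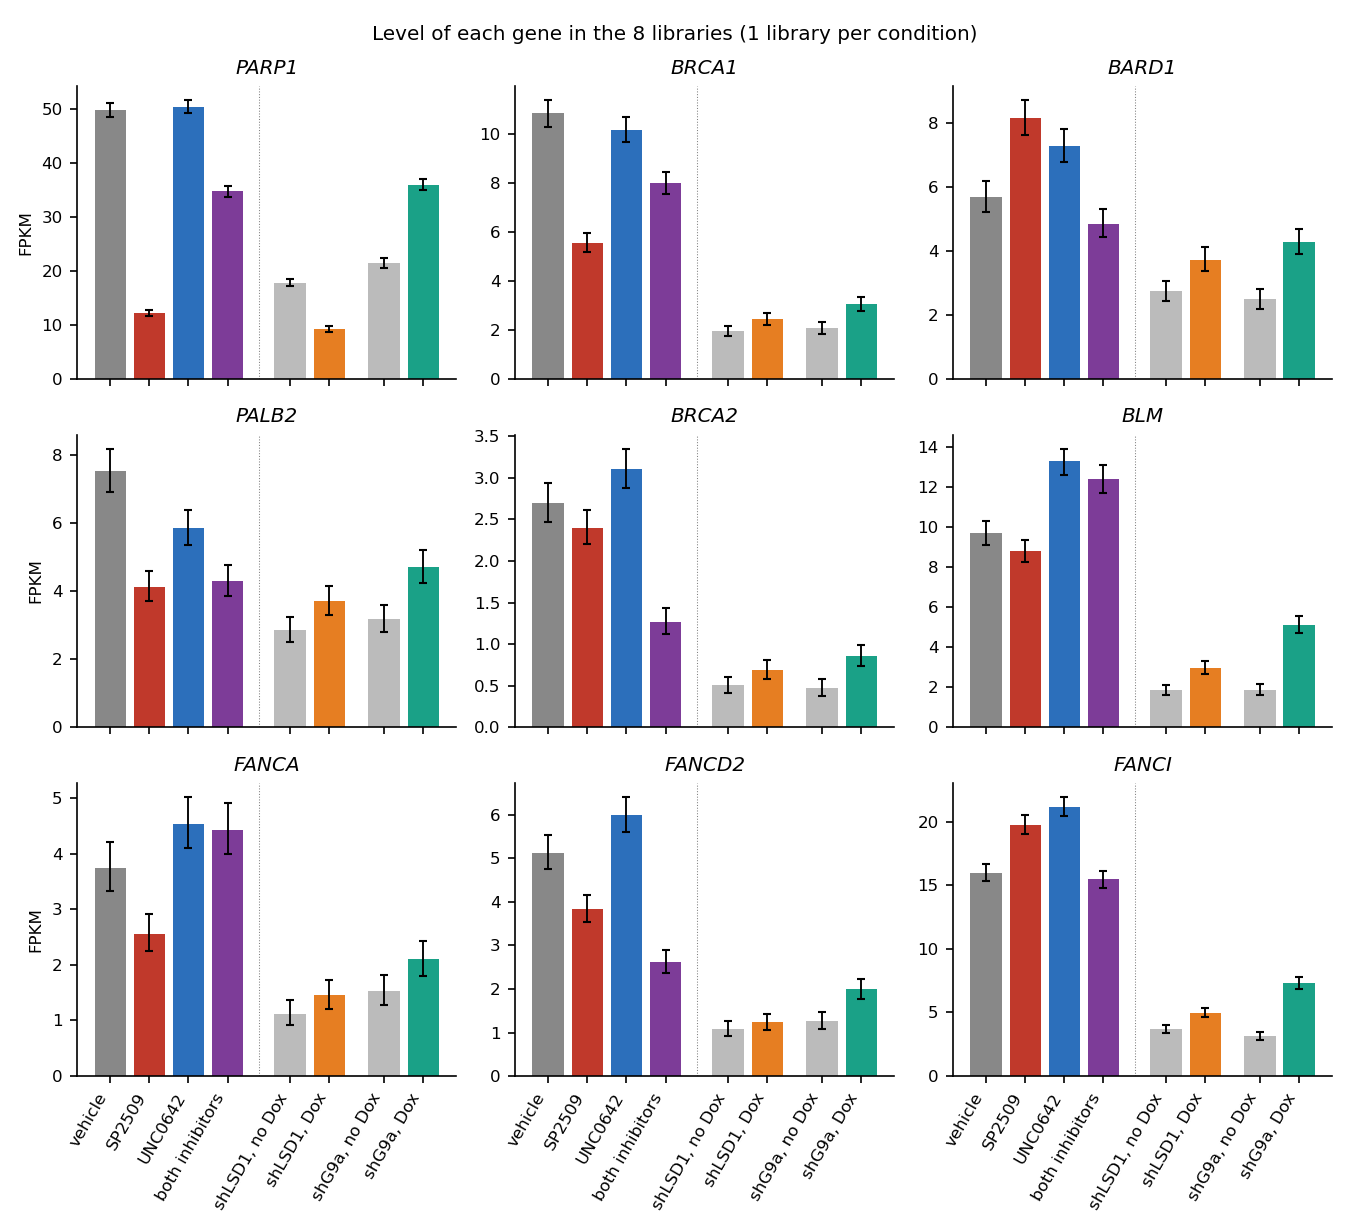
FPKM of each member in the 8 libraries, with bars for single libraries, error bars for exact 95% counting intervals, and a dotted line between the inhibitor and the shRNA table, which were normalized separately. PARP1 is lowest with SP2509 in the inhibitor table and with induced shLSD1 in the shRNA table. All 9 genes have their highest value of the shRNA table with induced shG9a, with an interval that overlaps the next library for BARD1, BRCA2 and FANCA. The share of all genes that are highest in that library was not counted, so whether this is particular to the 9 genes was not tested. Genes that reached 5 FPKM with and without Dox had a median shift of 0.14 on the log2 scale with shG9a.

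BRCA1 (ENSG00000012048, chromosome 17 from 43044295 to 43170245, minus strand) encodes the ubiquitin ligase that directs breaks to homologous recombination, and BARD1 (ENSG00000138376, chromosome 2 from 214725646 to 214809711, minus strand) encodes its obligate partner. BRCA1 was at 10.9 FPKM with vehicle, 5.56 under SP2509, 10.2 under UNC0642 and 8.01 with both inhibitors. It was lowest with SP2509, where it fell by 0.86 on the log2 scale (p = 5.60e-59 by the exact binomial test), and it fell by 0.40 with the combination (p = 1.60e-15 by the exact binomial test), while the intervals of vehicle and UNC0642 overlapped. BARD1 was at 5.68 FPKM with vehicle, 8.17 under SP2509, 7.30 under UNC0642 and 4.85 with both. Unlike BRCA1, it was highest with SP2509, with an interval that overlapped that of UNC0642, and it rose there by 0.46 on the log2 scale (p = 1.93e-11 by the exact binomial test). Its value was 0.31 for UNC0642 and -0.19 for the combination, neither of them called.

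Both partners had their highest value in the shRNA table when shG9a was induced, which for BARD1 overlapped the interval of induced shLSD1. BRCA1 was at 1.94 FPKM without and 2.44 FPKM with Dox in the shLSD1 line, and at 2.07 FPKM without and 3.04 FPKM with Dox in the shG9a line. BARD1 was at 2.74 and 3.73 FPKM in the shLSD1 line and at 2.48 and 4.28 FPKM in the shG9a line. With shG9a, BRCA1 rose by 0.40 and BARD1 by 0.60 on the log2 scale (p = 8.22e-08 and 1.95e-12 by the exact binomial test). With shLSD1 the values were 0.23 and 0.34, both under the threshold of 1.3-fold. BRCA1 was counted over 8922 bases in the inhibitor table and 9187 bases in the shRNA table, and its range overlaps 6 other listed genes in the first, NBR2 on the opposite strand among them. Whether reads were counted by strand was not stated.

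PALB2 (ENSG00000083093, chromosome 16 from 23603160 to 23641310, minus strand) bridges BRCA1 to BRCA2, and BRCA2 (ENSG00000139618, chromosome 13 from 32315474 to 32400266, plus strand) acts as a mediator of strand exchange. PALB2 was at 7.53 FPKM with vehicle, 4.13 under SP2509, 5.85 under UNC0642 and 4.29 with both inhibitors, so that vehicle was highest and the intervals of SP2509 and the combination overlapped. It fell by 0.73 on the log2 scale with SP2509 (p = 3.95e-19 by the exact binomial test) and by 0.69 with the combination (p = 7.69e-17 by the exact binomial test), and its value with UNC0642 was -0.32, short of the threshold. BRCA2 was at 2.69 FPKM with vehicle, 2.40 under SP2509, 3.11 under UNC0642 and 1.27 with both. Here the combination alone was low, with a fall by 0.70 on the log2 scale (ratio 0.471, 95% interval 0.405 to 0.547), and the intervals of SP2509 and UNC0642 each overlapped that of vehicle.

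In the shRNA libraries PALB2 was at 2.86 and 3.71 FPKM without and with Dox in the shLSD1 line and at 3.18 and 4.71 FPKM in the shG9a line, where it rose by 0.45 on the log2 scale (p = 1.24e-06 by the exact binomial test). BRCA2 was under 1 FPKM in all 4 shRNA libraries and could not be called in them. Its levels were 0.505 and 0.693 FPKM in the shLSD1 line and 0.473 and 0.861 FPKM in the shG9a line, which rest on 96 to 183 reads. The ratio of induced to uninduced shG9a was 1.82 (95% interval 1.41 to 2.36).

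BLM (ENSG00000197299, chromosome 15 from 90717327 to 90816165, plus strand) encodes a helicase that dissolves crossed strands at the end of recombination. It was at 9.71 FPKM with vehicle, 8.79 under SP2509, 13.3 under UNC0642 and 12.4 with both inhibitors. The 2 libraries that had received UNC0642 were highest and overlapped each other, and BLM rose by 0.41 on the log2 scale with UNC0642 (p = 1.03e-14 by the exact binomial test), while the combination, at 0.32, was not called. In the shLSD1 line BLM was at 1.85 FPKM without and 2.96 FPKM with Dox, and in the shG9a line at 1.87 and 5.10 FPKM. It rose in both, by 0.48 on the log2 scale with shLSD1 and by 1.09 with shG9a (ratios 1.60 and 2.73, 95% intervals 1.35 to 1.91 and 2.33 to 3.22). The second of these was the largest rise of any member in any of the 5 comparisons and stood 500th from the top among 13080 genes.

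FANCA (ENSG00000187741, chromosome 16 from 89737549 to 89816657, minus strand) is a subunit of the core complex that attaches ubiquitin to FANCD2 and FANCI. It was at 3.74 FPKM with vehicle, 2.56 under SP2509, 4.54 under UNC0642 and 4.43 with both inhibitors, and in the shRNA libraries at 1.12 and 1.45 FPKM (shLSD1 without and with Dox) and 1.53 and 2.10 FPKM (shG9a). SP2509 alone stood apart from the other inhibitor libraries, with a fall by 0.41 on the log2 scale (p = 2.27e-05 by the exact binomial test). That call was lost when ratios were centred on the median of all well expressed genes (-0.32). With shG9a the value of 0.29 was not called. Its range overlaps ZNF276 on the opposite strand, which was at 1.03 to 1.87 FPKM in the inhibitor table and 1.61 to 2.48 FPKM in the shRNA table.

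FANCD2 (ENSG00000144554, chromosome 3 from 10026414 to 10101930, plus strand) and FANCI (ENSG00000140525, chromosome 15 from 89243949 to 89317261, plus strand) form the clamp that closes around DNA at a crosslink. FANCD2 was at 5.13 FPKM with vehicle, 3.83 under SP2509, 5.99 under UNC0642 and 2.62 with both. No 2 of these intervals overlapped, and the combination was lowest, with a fall by 0.76 on the log2 scale (ratio 0.510, 95% interval 0.448 to 0.580). FANCI, in contrast, was at 16.0 FPKM with vehicle, 19.7 under SP2509, 21.2 under UNC0642 and 15.4 with both, so that the combination overlapped vehicle and each single inhibitor lay above it. FANCI rose by 0.39 on the log2 scale with UNC0642 (p = 2.33e-22 by the exact binomial test), and its value with SP2509, 0.29, was under the threshold.

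With shG9a both clamp subunits rose, FANCD2 from 1.26 to 2.00 FPKM (0.41 on the log2 scale, p = 1.28e-06 by the exact binomial test) and FANCI from 3.14 to 7.29 FPKM (1.002, p = 3.98e-50 by the exact binomial test). In the shLSD1 line FANCD2 was at 1.08 and 1.23 FPKM and FANCI at 3.70 and 4.99 FPKM, with log2 values of 0.11 and 0.35 that were not called. FANCI overlaps POLG on the opposite strand, which was at 13.1 to 21.7 FPKM in the inhibitor table and 10.7 to 14.4 FPKM in the shRNA table, there above FANCI in every library.

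The promoters of PARP1, which had the largest fall, BLM, which had the largest rise, and PALB2, which fell with SP2509 and with the combination, are shown for the 250 bases before the RefSeq start (GRCh38.p14), 5′ to 3′ on the strand of the gene. Capitals mark CCAAT, CCGGAAGT (an ETS site) and GGGCGG (a GC box), each searched on both strands. PARP1 lies at chr1:226408094-226408343, BLM at chr15:90717096-90717345 and PALB2 at chr16:23641311-23641560.
PARP1: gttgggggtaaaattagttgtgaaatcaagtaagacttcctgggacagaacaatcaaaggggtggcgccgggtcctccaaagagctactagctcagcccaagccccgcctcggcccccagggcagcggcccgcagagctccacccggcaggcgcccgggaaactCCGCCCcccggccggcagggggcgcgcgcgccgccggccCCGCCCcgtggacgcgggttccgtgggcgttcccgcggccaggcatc
BLM: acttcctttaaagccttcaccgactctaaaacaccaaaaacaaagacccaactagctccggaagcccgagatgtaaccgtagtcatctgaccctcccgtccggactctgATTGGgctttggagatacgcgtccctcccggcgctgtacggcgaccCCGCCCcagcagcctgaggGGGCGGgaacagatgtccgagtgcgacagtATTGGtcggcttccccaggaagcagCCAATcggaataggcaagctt
PALB2: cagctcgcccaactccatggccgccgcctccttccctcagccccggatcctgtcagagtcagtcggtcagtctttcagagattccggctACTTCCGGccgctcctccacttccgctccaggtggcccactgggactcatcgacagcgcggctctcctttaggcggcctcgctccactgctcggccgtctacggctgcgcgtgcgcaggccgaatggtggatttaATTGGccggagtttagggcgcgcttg
The PARP1 window held 2 GC boxes and no CCAAT, the BLM window 3 CCAAT boxes and 2 GC boxes, and the PALB2 window 1 CCAAT box and 1 ETS site, with no overlap between motifs. The table held 8 of the 9 members (FANCI is named only). CCAAT was present in 3 of these 8 windows and in 32.0% of all 35116 promoters of the same length, GGGCGG in 5 of 8 and in 42.6%, and CCGGAAGT in 3 of 8 and in 3.42%. The E2F forms TTTCCCGC, TTTCGCGC, TTTGCCGC and TTTGGCGC were present in 1 of 8 (FANCA) and in 2.79%, while TTTGAA (13.3% of all promoters) was in none. The BRCA1 window (from 43170328) lies beyond the range that the files give for the gene, as do those of PARP1 and PALB2. Only 1 window was read per gene, and other starts of the same gene were not searched. The last bases of the BARD1, BRCA2, BLM, FANCA and FANCD2 windows lie within the ranges given for these genes. These matches describe the letters only.

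Counted by comparison, 4 of 9 members fell with SP2509 (PARP1, BRCA1, PALB2 and FANCA) and 1 rose (BARD1), where 37.5% of all genes tested were called lower and 18.2% higher. A share of 4 in 9 lies near that background, and the member that stood apart was PARP1. With UNC0642, 2 of 9 rose (BLM and FANCI) and none fell, against 15.8% and 14.0% of all genes. With the combination, 5 of 9 fell (FANCD2, BRCA2, PALB2, PARP1 and BRCA1) and none rose, against 29.1% lower and 29.0% higher among all genes. Over the 9 members the median log2 fold change was -0.34 under SP2509, 0.19 under UNC0642 and -0.40 with the combination, and that of all genes tested was -0.21, -0.01 and -0.02. These 3 comparisons share the vehicle library.

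Of the 8 members that reached 1 FPKM, 1 rose (BLM) and 1 fell (PARP1) upon induction of shLSD1, against 22.7% and 10.4% of all genes. Upon induction of shG9a, 7 of 8 rose and none fell, against 30% higher and 15.8% lower among all genes. The median over all 9 members was 0.23 with shLSD1 and 0.45 with shG9a, beside 0.13 and 0.18 for all genes tested. Genes that reached 5 FPKM with and without Dox were somewhat higher with it, with a median shift of 0.11 on the log2 scale for shLSD1 and 0.14 for shG9a. Relative to that shift, 4 of 8 members rose with shG9a (PARP1, BARD1, BLM and FANCI) and none with shLSD1, and PARP1 still fell with shLSD1, by 0.99. The background then became 15.5% higher and 13.8% lower for shLSD1, and 20.5% higher and 19.8% lower for shG9a.

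**Figure D2:**
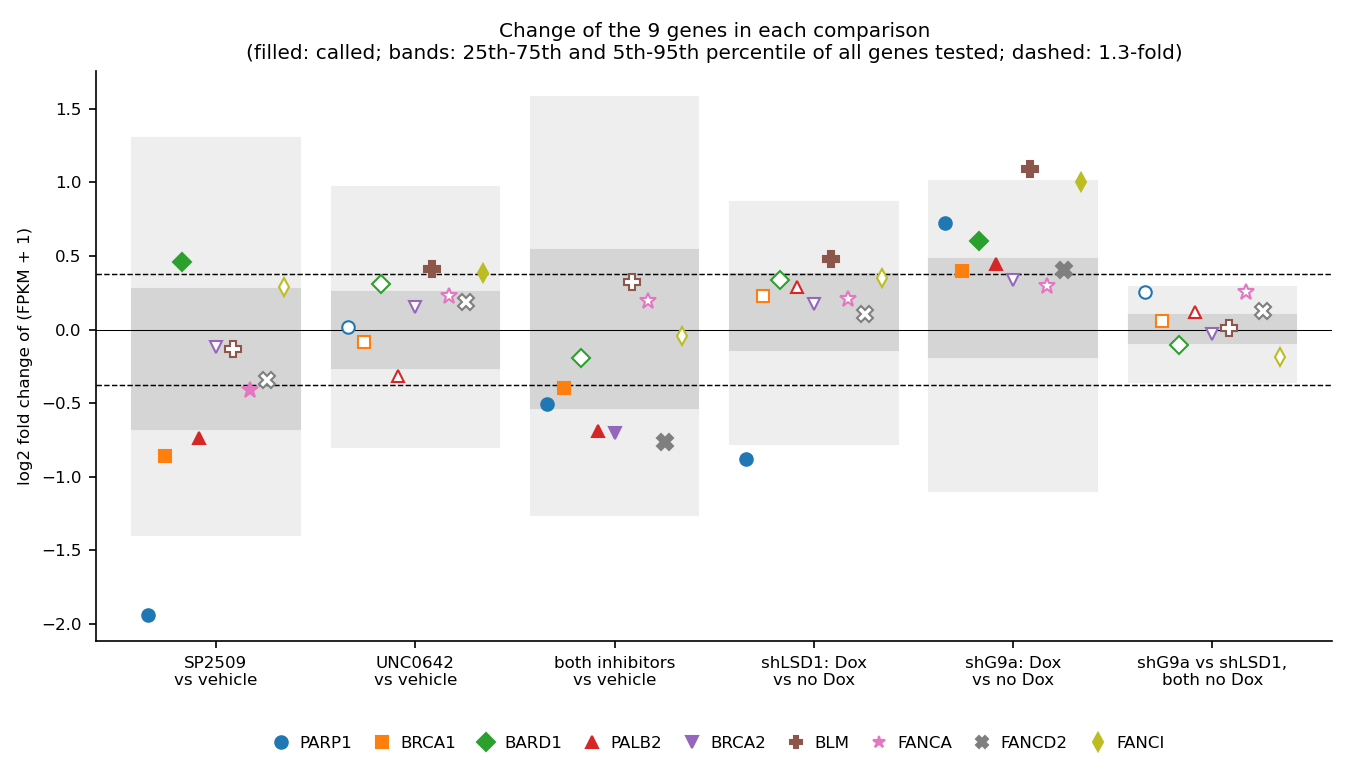
Log2 fold change of (FPKM + 1) of the 9 members in the 5 comparisons and between the 2 uninduced lines, with 1 marker per gene (filled where called), dashed lines at 1.3-fold, and grey bands for the 25th to 75th and the 5th to 95th percentile of all genes tested. PARP1 lies below the 5th percentile with SP2509 (-1.94) and with shLSD1 (-0.88), and BLM (1.09) lies above the 95th percentile with shG9a.

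The combination was then set beside each single inhibitor, a comparison added with the results above known. Against SP2509, the combination had 2.85 times the PARP1 level (95% interval 2.68 to 3.02), and BRCA1, BLM and FANCA were also called higher, with ratios of 1.44, 1.41 and 1.73. BARD1, BRCA2 and FANCD2 were called lower, with ratios of 0.594, 0.529 and 0.682. These are 4 higher and 3 lower of 9, against 39.4% and 22.2% of all genes tested. Against UNC0642, none was called higher and 5 were called lower, where 25.2% and 24.6% of all genes were called. The 5 were FANCD2 (ratio 0.437), BRCA2 (0.409), BARD1 (0.665), PARP1 (0.690) and FANCI (0.730). FANCD2 and BRCA2 were thus lower with both inhibitors than with vehicle or with either inhibitor alone, and for PARP1 the combination lay between the single inhibitors.

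The other genes of these pathways were read from lists that hold none of the 9 members. Among all genes tested, 37.5% fell and 18.2% rose with SP2509, 14.0% and 15.8% with UNC0642, and 29.1% and 29.0% with the combination. With SP2509 the homologous recombination list lay near these shares, at 43.9% and 14.6%. Of 41 further homologous recombination genes tested with SP2509, 18 were called lower and 6 higher, with BRCC3 (a deubiquitinase of the BRCA1-A complex, 16.0 to 6.23 FPKM) and RPA1 (the large subunit of the single-strand binding protein, 38.5 to 16.7 FPKM) falling most. C17orf53, which recruits the MCM8-MCM9 helicase (3.72 to 9.64 FPKM), and RAD52, which anneals single strands (5.50 to 8.39 FPKM), rose most. With UNC0642, 6 of the 41 rose and 2 fell, led by XRCC2, a recombination factor that went from 4.59 to 9.01 FPKM. With the combination 15 fell and 10 rose, and BABAM2, a subunit of the BRCA1-A complex (8.73 to 2.57 FPKM), and NBN, the nibrin subunit of the complex that first binds a break (15.9 to 5.23 FPKM), fell most.

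With induced shLSD1, 8 of 37 genes of the same list rose and 2 fell, with RPA2, the middle subunit of the single-strand binding protein, going from 10.6 to 17.1 FPKM. With induced shG9a, 17 of 38 rose and 1 fell, led by TONSL (2.33 to 5.49 FPKM), which acts at stalled replication forks, and RPA2 (11.7 to 23.1 FPKM). RBBP8, which encodes the end resection factor CtIP, was the 1 that fell (13.7 to 10.2 FPKM). The list median was 0.35 on the log2 scale, beside 0.18 for all genes tested.

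Among 24 further Fanconi genes tested in the inhibitor libraries, 9 fell and 3 rose with SP2509, 2 fell and 5 rose with UNC0642, and 8 fell and 6 rose with the combination. Falls with SP2509 (37.5%) equalled the share of all genes tested, and those with the combination were 33.3%, beside 29.1%. USP1, the deubiquitinase that resets FANCD2 and FANCI, was at 45.8 FPKM with vehicle and 17.7 FPKM with SP2509, whereas UBE2T, the ubiquitin-conjugating enzyme that opposes it, was at 31.9 and 51.1 FPKM. The genes that attach ubiquitin went both ways with SP2509, since FANCL, the ligase that works with UBE2T, fell by 1.001 on the log2 scale, and FANCC and FANCF of the core complex fell by 0.51 and 0.41. In the shRNA libraries no gene of the list was called lower, and 7 of 23 rose with shLSD1 and 10 of 23 with shG9a. RFWD3, a ubiquitin ligase, rose most in both, from 3.06 to 5.99 FPKM and from 3.35 to 9.52 FPKM, and it also rose with the combination, from 11.2 to 28.2 FPKM.

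PARP1 was next set beside the other PARP and base excision repair genes. With SP2509 none of 27 was called higher and 11 were called lower (40.7%, beside 37.5% of all genes tested). FEN1, the flap endonuclease (16.2 to 5.19 FPKM), and PCNA, the sliding clamp (60.2 to 21.1 FPKM), fell most. PARP2, the closest relative of PARP1 in break repair, was not called in any of the 5 comparisons, and its log2 values ran from -0.12 to 0.10. PARG, which removes poly(ADP-ribose), rose by 0.58 with shLSD1 and 0.69 with shG9a and was not called with the inhibitors. With shLSD1, 7 of 28 genes rose and none fell, so that PARP1 moved against every called gene of the list there, while with shG9a 14 of 28 rose and none fell. FEN1 and PCNA, which fell with SP2509 as PARP1 did, rose with shLSD1, FEN1 from 5.41 to 12.1 FPKM and PCNA from 22.9 to 43.4 FPKM. In the combination 7 rose and 8 fell (25.9% and 29.6%, beside 29.0% and 29.1%), with FEN1 at 62.1 FPKM.

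Genes of S phase and proliferation were read beside the members, since the pathway genes are known to follow the cell cycle. Of 30 such genes (PCNA is also in the previous list), 24 of 29 tested rose with shG9a and none fell, with RRM2, a ribonucleotide reductase subunit, going from 2.49 to 12.0 FPKM and the transcription factor gene E2F2 from 0.421 to 3.62 FPKM. With shLSD1, 19 of 28 rose and none fell, and the list median was 0.46 on the log2 scale where that of the tested members was 0.26. With SP2509, 15 of 29 fell and 5 rose, and with UNC0642, 9 of 30 rose and 1 fell. With the combination 15 rose and 9 fell. The early genes CCNE1 (1.002 to 7.64 FPKM) and E2F1 (7.86 to 30.8 FPKM) rose most, and the mitotic genes TOP2A and PLK1 fell most, by 2.34 and 2.07 on the log2 scale. The part of the cell cycle in the members' changes was not tested.

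The remaining repair lists were counted in the same way. With shG9a, 7 of 16 end joining genes and 11 of 21 damage checkpoint genes rose and none fell, and of 19 mismatch and nucleotide excision repair genes 5 rose and 1 fell. With shLSD1 the rises were 2 of 16, 7 of 20 and 2 of 18, with no falls. With SP2509, 6 of 16, 10 of 20 and 10 of 19 fell while 0, 5 and 2 rose, and with the combination 9 of 16, 7 of 20 and 10 of 19 fell while 0, 5 and 1 rose. With UNC0642 no end joining gene was called, 2 checkpoint genes rose and 1 fell, and 4 genes of the last list fell. H2AFX, the histone variant phosphorylated at breaks, fell from 24.2 to 5.18 FPKM with SP2509 and rose with shLSD1 (9.91 to 30.8 FPKM) and with shG9a (12.1 to 37.0 FPKM). PRKDC, the kinase of end joining, fell from 99.6 to 62.0 FPKM with SP2509 and to 49.0 FPKM with the combination.

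The annotation deposited with the FPKM values gives broader groups, which include some of the members. Of the tested genes annotated to repair by homologous recombination, 33 of 62 fell and 5 rose with SP2509, 6 fell and 6 rose with UNC0642, and 20 fell and 10 rose with the combination, while 21 of 65 rose with shLSD1 and 30 of 65 with shG9a, and 2 fell in each. For interstrand crosslink repair, 16 of 33 fell and none rose with SP2509, 4 fell and 2 rose with UNC0642, and 10 of 35 fell and 8 rose with the combination. In the shRNA libraries 11 of 34 genes of that group rose with shLSD1 and 17 of 33 with shG9a, and 0 and 1 fell. With SP2509, 53.2% and 48.5% of the recombination and crosslink groups fell, beside 37.5% of all genes tested. With the combination 32.3% and 28.6% fell, near the 29.1% of all genes, and 16.1% and 22.9% rose, beside 29.0%. Rises with shLSD1 were 32.3% and 32.4%, beside 22.7% of all genes. Rises with shG9a were 46.2% and 51.5%, more than the share of all genes given earlier. With UNC0642, 9.68% and 6.06% of these groups rose, beside 15.8% of all genes tested, so they had no excess of rises. Among the shorter lists above, only the Fanconi list (20.8%) and the S phase list lay above that share.

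**Figure D3:**
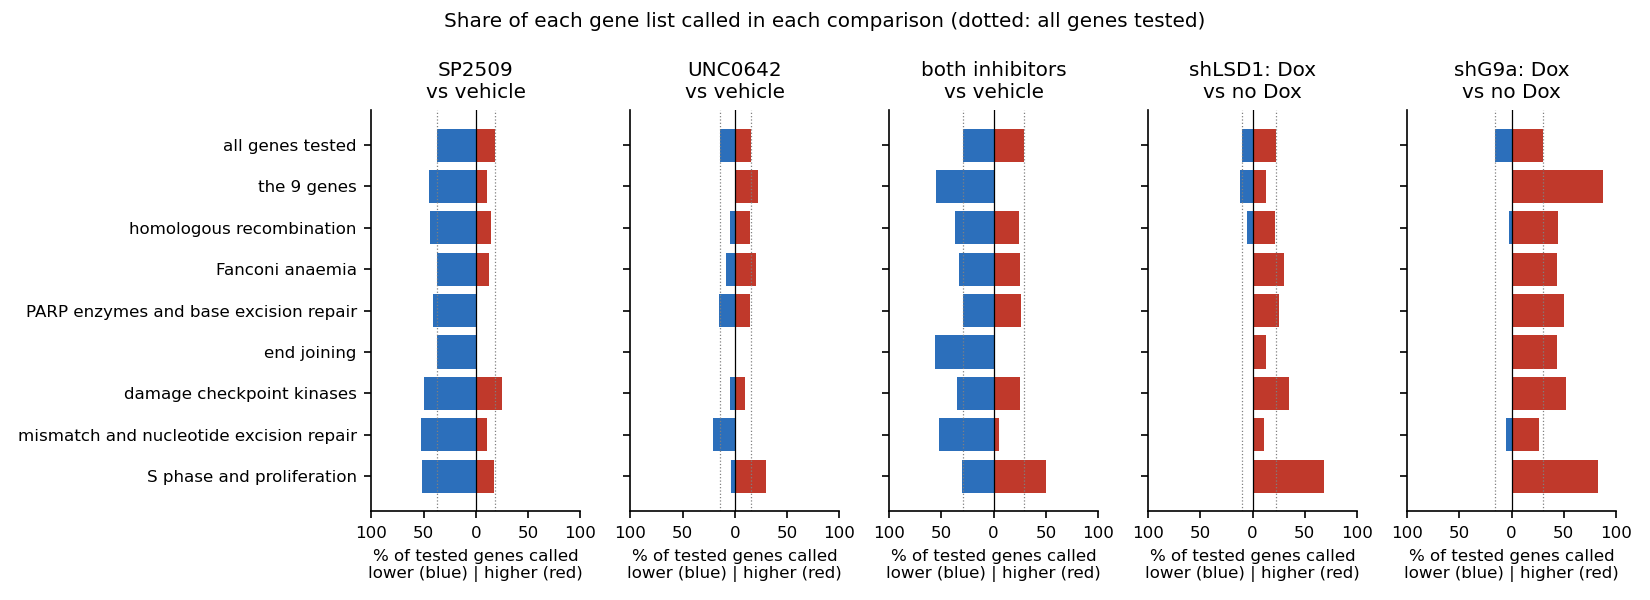
Percentage of the tested genes of each list called higher (red, to the right) or lower (blue, to the left) in the 5 comparisons, with dotted lines at the share among all genes tested. With shG9a the 9 genes (7 of 8 tested) and the S phase list (24 of 29) have the longest bars to the right, and with both inhibitors the 9 genes and the end joining list have a bar to the left only.

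The members did not share 1 pattern over the 8 libraries. With the mean of each table removed, Pearson's r of log2(FPKM + 1) was highest for FANCD2 with BRCA2 (0.934), BRCA1 with PALB2 (0.895) and BARD1 with FANCI (0.893), and it was -0.23 for PARP1 with BARD1. BRCA1 and its partner BARD1 gave 0.026. These values describe 8 libraries from 2 tables and carry no test. Among 9439 genes with at least 1 FPKM in every library, the patterns most like that of PARP1 were BRD3OS (r = 0.971), MOCS2 (0.970) and BOLA1 (0.964). Those nearest to BLM were TTI2, MPHOSPH6 and TMEM164 (0.983 to 0.985), and those nearest to FANCI were VAMP3, KIFC1 and VRK1 (0.968 to 0.978). For BRCA1 they were YLPM1, LYRM7 and HTATSF1, for BARD1 NUDCD1, MVP and ITM2B, for PALB2 MUM1, PRUNE1 and USP19, for FANCA TEDC2, AAGAB and EIF5AL1, and for FANCD2 BCLAF1, GRK2 and MANEA, with r between 0.957 and 0.997. BRCA2 was too low in the shRNA table to be ranked.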

How the data were processed

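RNA of Kyse510 cells was sequenced as paired-end reads. The authors mapped the reads to GRCh38 and deposited FPKM values in 2 separately normalized tables of 4 libraries each. The aligner, the counting tool and the strand setting are not given in the sources used here. Conditions were taken from the labels. Whole reads were recovered with Python 3.11.15 (numpy 2.4.6, scipy 1.17.1), since FPKM times length falls on whole steps for genes of 1 exon. The recovered reads made up 99.6% to 99.8% of each total. In simulated SP2509 and vehicle libraries, reads of 97.8% of 23695 genes were exact, 196 of 200 genes changed 2-fold were called, and 105 of 12593 unchanged genes were called. Both were drawn from the vehicle levels with counting error alone, so these counts leave out differences between cultures. BLM and BRCA1 were counted over different lengths in the 2 tables, so no test crosses tables. Each treated library was compared with its own control at a pseudocount of 1, a minimum of 1 FPKM, a fold of 1.3 and a two-sided exact binomial p threshold of 0.05, unadjusted. Named genes are the 9 members, both targets, the 2 largest rises and falls called in each list and comparison (not all printed), and the 3 genes nearest to each member. PARP2, PARG, FANCL, FANCC, FANCF and the overlapping genes lie outside that rule and were named after their values were seen. The members and lists were chosen with earlier results of these data known. SHLD3 in the inhibitor table was not analysed here, and 1 gene of the lists is not reported by name. Alternatives were a pseudocount of 0.1, no filter, a minimum of 5 FPKM, a fold of 2, centring on the median or on a mean trimmed by 30% at each end, fold only, Benjamini-Hochberg p, and the mean of both uninduced libraries as control.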

Additional observations from a re-analysis of the deposited data

Results flagged for a closer look

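PARP1 moved in opposite directions upon induction of the 2 hairpins, with a log2 fold change of -0.88 in the shLSD1 line and of 0.72 in the shG9a line. The difference was not tested, as each condition had 1 library. Relative to the median shift of well expressed genes (5 FPKM or more), the values were -0.99 and 0.58.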

How the results depend on the processing

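With 1 library per condition, all tests cover counting error only, and there was no replicate to leave out. No paired analysis was possible because each group has 1 library. No log2 fold change of a member changed its sign where called. Of the counts of members called under the alternatives, 67 were within 1.5 times the reported count and 17 were not. With a fold of 2, the count of members called higher became 0 with SP2509, 0 with UNC0642, 0 with shLSD1 and 2 with shG9a, and the count called lower became 1 with SP2509, 0 with the combination and 0 with shLSD1. Centring on the median or on the trimmed mean gave 2 higher with SP2509, 0 with shLSD1 and 4 with shG9a. With shLSD1, a pseudocount of 0.1 gave 3 higher, and the mean of both uninduced lines as control gave 3 (BARD1, BLM and FANCI). There a minimum of 5 FPKM gave 0 higher, as it left only PARP1, which fell. With shG9a, a minimum of 5 FPKM left 3 members tested, of which 3 were higher. The fall of PARP1 with shLSD1 (-0.88) is one of the calls that a fold of 2 ends. The call of FANCA with SP2509 ends with centring (-0.32), where FANCI becomes called (0.38). Of the values of single members, 334 kept their side of the threshold, 35 lost a call and 9 gained one. FANCA (97 to 177 reads) and BRCA2 (96 to 183 reads) have the fewest reads of the members in the shRNA libraries.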
